A study of Mus musculus with 9 samples.

Results

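Described here are 10 genes of cerebellar neurons across 9 brain libraries. Their symbols are Gabra6, Fat2, Cbln3, Cbln1 and Zic1 for granule cells and Pcp2, Car8, Homer3, Calb1 and Itpr1 for Purkinje cells. They are 10 of the 20731 genes in the count table, and 8 of them were among the 14746 genes that passed the filter on low counts. Gabra6 and Cbln3 did not pass, because they had more than 4 counts in only 2 libraries. The 10 genes were looked up by symbol, and they had been chosen by their levels in these libraries, which were highest in replicate 2 of the CVST+Ligation group. That common peak is therefore how the genes were chosen and not a result. For the same reason every comparison of these genes between groups is given as a description with its standard error, and nothing is read from the counts of members past a p threshold, which are set only beside the share of all genes.

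The libraries came from male C57BL/6J mice aged 8 to 10 weeks, 3 mice in each of 3 groups, and brain RNA was taken on day 2. All mice had thrombosis of the superior sagittal sinus induced with ferric chloride (cerebral venous sinus thrombosis, CVST), so the control group carries the thrombosis as well. The CVST+Ligation group also had ligation of the deep cervical lymph nodes, the outflow of the meningeal lymphatic vessels. The 4-PBA group had thrombosis, ligation and 4-phenylbutyric acid, a chemical chaperone that dampens endoplasmic reticulum stress, given intraperitoneally at 100 mg/kg. The methods place the dose 30 min before modelling, whereas the description of the dataset places it after the ligation. Sample labels name the tissue as brain, and the design text of the dataset names cortical tissue. Each library counted as 1 mouse. The question the groups address is what the ligation adds to thrombosis and what 4-PBA does to that.

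The cerebellum lies behind the forebrain and coordinates movement. Its granule cells are small, densely packed excitatory neurons that send parallel fibres to the dendrites of Purkinje cells, and Purkinje cells are the inhibitory output neurons of the cerebellar cortex. Granule cells carry a GABA-A receptor subunit and release cerebellins that hold the synapse onto Purkinje cells, while Purkinje cells are rich in calcium stores and calcium-binding proteins. Genes such as Gabra6, Cbln3 and Pcp2 are used as markers of these cells because forebrain neurons make little of them, whereas Calb1, Itpr1, Zic1, Cbln1 and Homer3 are also made by some neurons outside the cerebellum.

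Sequence upstream of the start sites is shown for 3 of the markers most restricted to the cerebellum, Gabra6 and Cbln3 of granule cells and Pcp2 of Purkinje cells, so that the genes themselves can be seen beside their values. Upstream windows of RefSeq on GRCm38.p6 matched 6 of the 10 members, and the stretches printed hold no annotated exon. They are written 5′ to 3′ on the strand of the gene, in lower case, with a match to a searched motif in capitals. Gabra6 is shown from chr11:42321073-42321322, directly before its start site. Cbln3 is shown from chr14:55884393-55884506, which ends 136 bases before the start of its window's transcript. Pcp2 is shown from chr8:3625607-3625778, which ends 59 bases before the start of that transcript. All 3 lie on the minus strand.
Gabra6: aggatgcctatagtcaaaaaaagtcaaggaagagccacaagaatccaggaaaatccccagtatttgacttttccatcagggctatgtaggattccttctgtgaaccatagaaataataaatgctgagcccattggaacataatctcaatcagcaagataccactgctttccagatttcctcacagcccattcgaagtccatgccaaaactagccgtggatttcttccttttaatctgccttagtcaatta
Cbln3: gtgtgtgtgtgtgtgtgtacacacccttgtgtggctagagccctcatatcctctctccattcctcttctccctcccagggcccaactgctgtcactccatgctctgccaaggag
Pcp2: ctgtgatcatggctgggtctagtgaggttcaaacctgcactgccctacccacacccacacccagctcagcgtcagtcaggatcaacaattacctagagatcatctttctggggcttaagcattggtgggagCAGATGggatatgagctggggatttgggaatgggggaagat
The capitals in the Pcp2 stretch mark CAGATG, an E-box of the kind bound by NeuroD and Atoh1 factors. Each upstream window was searched on both strands for CAGATG, for AGGTCA (a motif of the orphan receptor RORA) and for TATAAA, and 14.4%, 14% and 12.4% of all 32851 upstream windows of 250 bases held them. The printed Gabra6 and Cbln3 stretches held none of these letters.

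Gabra6 encodes the alpha-6 subunit of the GABA-A receptor and lies at chr11:42306437-42321072. It had 0 counts in all CVST libraries, 0, 4101 and 119 counts in replicates 1, 2 and 3 of CVST+Ligation, and 0 counts in all 4-PBA libraries. Gabra6 was therefore counted in 2 of 9 libraries, both from the same group, and the groups overlapped because replicate 1 of CVST+Ligation had no count. A count of 0 allows up to 3 counts, which is 0.114 to 0.163 CPM (the count divided by the TMM-scaled library size and put on a common scale) depending on the library. The CVST+Ligation mean was 72.2 ± 121 CPM (SD, n = 3), at least 512-fold above CVST and at least 537-fold above 4-PBA when each library of those groups is set at its own limit of 3 counts. These libraries hold RNA of whole tissue pieces, so fewer cells of a type and less RNA per cell cannot be told apart for any gene below.

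Fat2, a giant cadherin of granule cell parallel fibres, lies at chr11:55250609-55336564. It had 6, 6 and 5 counts in CVST, 9, 7619 and 224 in CVST+Ligation, and 6, 0 and 14 in 4-PBA. In CPM these were 0.255 to 0.271 in CVST, 0.372, 393 and 9.85 in replicates 1, 2 and 3 of CVST+Ligation, and 0 to 0.533 in 4-PBA. Replicate 2 was high, replicate 3 was well above the other libraries and replicate 1 lay just above the CVST libraries.

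Cbln3, a cerebellin made in granule cells and secreted together with cerebellin 1, lies at chr14:55878913-55884392. Its counts were 3, 0 and 1 in CVST, 2, 2013 and 80 in CVST+Ligation, and 2, 4 and 4 in 4-PBA. The split was thus the same as for Gabra6 and Fat2, with replicates 2 and 3 of CVST+Ligation above the others and replicate 1 among them. With so few counts outside those libraries, the ratio of summed counts was 509 for CVST+Ligation over CVST (95% exact interval 199 to 1871) and 216 for CVST+Ligation over 4-PBA (117 to 451). For 4-PBA over CVST the ratio was 2.36 with an interval of 0.679 to 10.3. These intervals cover counting error only and not the spread between mice.

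Cbln1, the cerebellin that bridges neurexins on parallel fibres to the delta-2 glutamate receptor of Purkinje cells, lies at chr8:87468405-87472609. It had 4.72, 1.24 and 7.92 CPM in CVST, 7.73, 111 and 14.0 CPM in CVST+Ligation, and 11, 18.2 and 21.5 CPM in 4-PBA. Replicate 2 of CVST+Ligation exceeded all others, replicate 3 lay within the range of 4-PBA, and every 4-PBA library exceeded every CVST library.

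Zic1, a zinc-finger transcription factor of granule cells and their precursors that is also made in parts of the forebrain and meninges, lies at chr9:91358058-91365810. Its levels were 7.44, 4.48 and 3.47 CPM in CVST, 5.74, 137 and 13.5 CPM in CVST+Ligation, and 25.7, 15 and 29.3 CPM in 4-PBA. As for Cbln1, the 4-PBA libraries lay wholly above the CVST libraries, and replicates 1 and 3 of CVST+Ligation lay below the 4-PBA libraries.

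**Figure D1:**
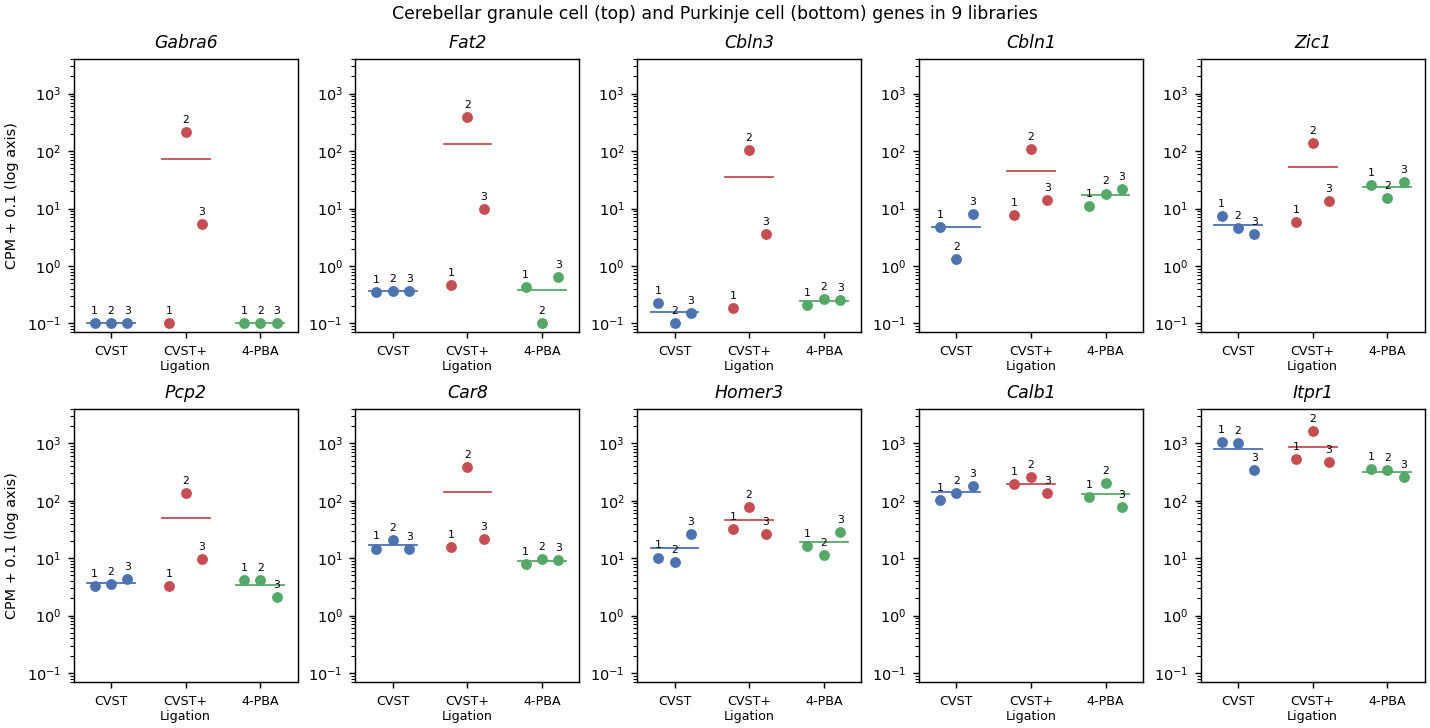
Level of each of the 10 genes in each library, as CPM plus 0.1 on a log axis, with granule cell genes in the top row and Purkinje cell genes in the bottom row. Points are libraries numbered by replicate and lines are group means; replicate 2 of CVST+Ligation is the highest point in all 10 panels, which is how the genes were chosen, and replicate 3 of that group stands above the remaining 7 libraries for Gabra6, Fat2, Cbln3, Pcp2 and Car8, with 5.23, 9.85, 3.52, 9.54 and 21.5 CPM.

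Pcp2, Purkinje cell protein 2, a modulator of G-protein signalling confined largely to Purkinje cells and retinal bipolar cells, lies at chr8:3623371-3625545. It had 74, 77 and 77 counts in CVST, 77, 2642 and 217 in CVST+Ligation, and 75, 95 and 53 in 4-PBA. The 7 libraries other than replicates 2 and 3 of CVST+Ligation thus shared a low level, between 2.02 and 4.18 CPM. Pcp2 shares 941 exon bases, 51.5% of its exons, with Pet100 on the opposite strand, and although the methods name an orientation mode for the alignment, whether the counting used strand is not stated, so reads of the pair cannot be told apart.

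Car8, a carbonic anhydrase-related protein without catalytic activity that binds the IP3 receptor in Purkinje cells, lies at chr4:8143362-8239041. Its levels were 14.6, 20.8 and 14.6 CPM in CVST, 15.4, 385 and 21.5 CPM in CVST+Ligation, and 7.75, 9.72 and 9.03 CPM in 4-PBA. Replicate 2 of CVST+Ligation stood far above all others, and the 4-PBA libraries lay below every library of the other groups.

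Homer3, a scaffold that links metabotropic glutamate receptors to the IP3 receptor at Purkinje cell synapses, lies at chr8:70282827-70294361. It had 10.2, 8.51 and 26.7 CPM in CVST, 31.6, 77.7 and 26.2 CPM in CVST+Ligation, and 16.3, 11.3 and 28.7 CPM in 4-PBA. Here the groups overlapped throughout, and replicate 2 was above the next library, replicate 1 of its own group, by a smaller step than for the genes above. Homer3 shares 874 exon bases, 25.4% of its exons, with Ddx49 on the opposite strand.

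Calb1 encodes calbindin, a calcium-binding protein of Purkinje cells and of many forebrain neurons, and lies at chr4:15881264-15908064. Its levels were 104, 137 and 178 CPM in CVST, 197, 261 and 138 CPM in CVST+Ligation, and 118, 201 and 76.1 CPM in 4-PBA. No group stood apart, and replicate 2 exceeded the next library by less than the range within CVST.

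Itpr1, the IP3 receptor that releases calcium from the endoplasmic reticulum, lies at chr6:108213096-108551109 on the plus strand. It had 1065, 1011 and 343 CPM in CVST, 524, 1622 and 463 CPM in CVST+Ligation, and 356, 344 and 258 CPM in 4-PBA. The CVST libraries were split, with replicate 3 at the level of 4-PBA and the other 2 above all libraries but replicate 2 of CVST+Ligation.

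Compared per length, as FPKM within replicate 2 of CVST+Ligation, the highest of the 10 genes was Car8 at 455, followed by Calb1 at 344, Pcp2 at 290, Itpr1 at 201, Cbln1 at 197, Cbln3 at 181, Gabra6 at 156, Zic1 at 106, Homer3 at 70.2 and Fat2 at 31.0. These are levels in 1 library and carry no replicate error. By group mean, Calb1 and Itpr1 led in CVST, with 173 ± 43.4 and 95.4 ± 48.5 FPKM (SD, n = 3), whereas Gabra6, Fat2 and Cbln3 had 0, 0.0197 ± 0.000672 and 0.0991 ± 0.106 FPKM.

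The excess in CVST+Ligation differed by gene in how it was shared between its libraries. Against the CVST mean, replicate 2 was 1487-fold higher for Fat2, 38.0-fold for Pcp2, 26.8-fold for Zic1, 24.0-fold for Cbln1, 23.1-fold for Car8, 5.14-fold for Homer3, 2.01-fold for Itpr1 and 1.87-fold for Calb1. In replicate 3 the same ratios were 37.3 for Fat2, 2.67 for Pcp2, 2.62 for Zic1, 3.03 for Cbln1, 1.29 for Car8, 1.73 for Homer3, 0.574 for Itpr1 and 0.988 for Calb1. Cbln3, by counts, was 1673-fold higher in replicate 2 (interval 652 to 6147) and 56.7-fold higher in replicate 3 (21.3 to 213) than in CVST.

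Replicate 1 of CVST+Ligation was at 1.41-fold the CVST mean for Fat2, 0.889-fold for Pcp2, 0.922-fold for Car8, 1.12-fold for Zic1, 1.67-fold for Cbln1, 2.09-fold for Homer3, 1.41-fold for Calb1 and 0.650-fold for Itpr1. Set against the CVST mean, the excess of replicate 3 was 2.48% of that of replicate 2 for Gabra6 and 2.44% for Fat2. For Cbln3 it was 3.33%, for Pcp2 4.50%, for Car8 1.31%, for Zic1 6.29%, for Cbln1 8.85% and for Homer3 17.6%. For Itpr1 and Calb1 there was no such excess, since replicate 3 lay below the CVST mean (−42.1% and −1.38%). Gabra6, Fat2 and Cbln3, the members with the least background in other libraries, thus kept a ratio of replicate 2 to replicate 3 of 40.4, 39.9 and 29.5 respectively.

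**Figure D2:**
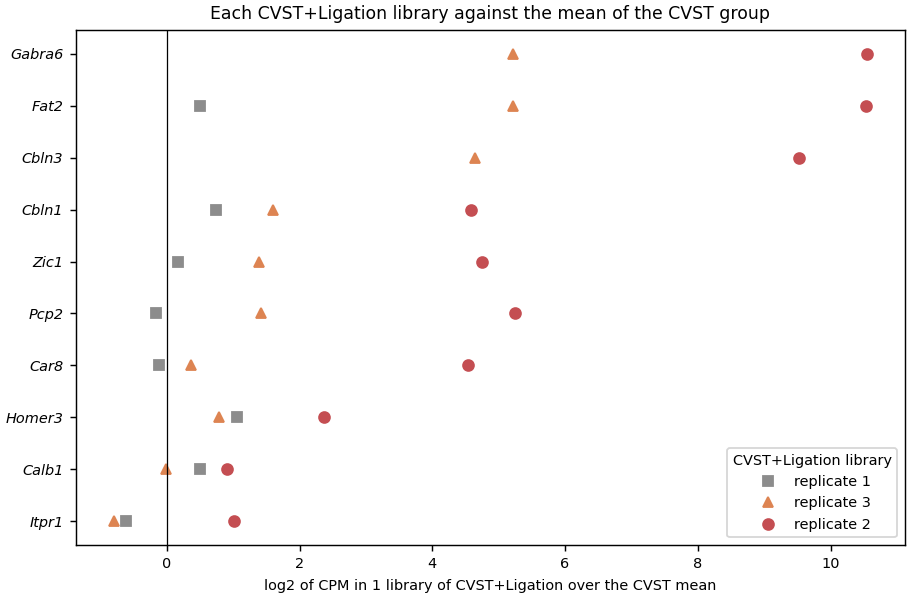
Each CVST+Ligation library over the mean of the CVST group, as log2 of the ratio of CPM, for the 10 genes. For Gabra6 and Cbln3 the CVST mean is replaced by its limit of 3 counts a library (0.141 CPM) and replicate 1, which had 0 and 2 counts, is left out; circles (replicate 2) lie right of triangles (replicate 3) for every gene, and triangles reach 5.22 for Fat2 but 0.37 for Car8.

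Pearson's r between pairs of the 8 tested members, over log2 CPM in the 9 libraries, had a median of 0.62 and ranged from 0.0066 to 0.95 over 28 pairs. Without replicate 2 of CVST+Ligation the median was 0.06, with a range of −0.85 to 0.70. The points share their libraries and the genes were chosen for 1 common peak, so these values only describe how much of the likeness sits in that library. In order of likeness to the mean profile of the members, r was 0.97 for Pcp2, 0.93 for Car8, 0.91 for Fat2, 0.72 for Homer3, 0.70 for Cbln1, 0.68 for Zic1, 0.50 for Calb1 and 0.45 for Itpr1. All 10 members were highest in replicate 2, by choice, while 17.3% of the 14746 tested genes were.

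In the comparison of CVST+Ligation with CVST, which asks what ligation adds to thrombosis, all 8 tested members had positive fitted differences. On the log2 scale these were 8.96 ± 2.38 (SE) for Fat2, 3.79 ± 1.05 for Pcp2, 3.34 ± 0.94 for Zic1, 3.26 ± 0.92 for Cbln1, 3.08 ± 0.97 for Car8, 1.58 ± 0.55 for Homer3, 0.51 ± 0.36 for Calb1 and 0.11 ± 0.52 for Itpr1, from edgeR's quasi-likelihood fit over 3 libraries a group. The median was 3.17, and 3.30 over all 10 with Gabra6 at its bound and Cbln3 at its count ratio, against 0.00 over all genes tested. At an unadjusted p below 0.05, 6 of the 8 were higher, where 5.47% of all genes tested were (9.64% in either direction), and nothing is read from that count because the choice of genes used the same libraries. Fat2 was the only member whose groups did not overlap, while 6.61% of all genes tested were likewise wholly higher and 7.21% wholly lower. At an adjusted p below 0.05, 0.0203% of all genes tested were called.

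Replicate 2 carried these differences. Without it the fitted values were 4.24 for Fat2, 1.24 for Cbln1, 0.94 for Homer3, 0.89 for Zic1, 0.83 for Pcp2 and 0.14 for Car8, the sign turned for Itpr1 (−0.71), and the median was 0.86. Without replicates 2 and 3 together, the only libraries with Gabra6 counts, the median was 0.32, and Pcp2 (−0.17) and Car8 (−0.12) turned as well. In that last fit CVST+Ligation has 1 library, which is assumed to vary like the other groups. For Itpr1, leaving out CVST replicate 3, its low library, also turned the sign (−0.28).

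For 4-PBA against CVST+Ligation, which asks what the drug does after ligation, the same CVST+Ligation libraries serve as the reference, so the signs are not independent of the first comparison. All 8 tested members had negative fitted differences, −8.83 ± 2.27 for Fat2, −3.99 ± 0.98 for Car8, −3.89 ± 1.06 for Pcp2, −1.45 ± 0.52 for Itpr1, −1.38 ± 0.90 for Cbln1, −1.27 ± 0.55 for Homer3, −1.16 ± 0.92 for Zic1 and −0.59 ± 0.36 for Calb1. Their median was −1.41, or −2.67 over all 10, against −0.02 over all genes tested. At an unadjusted p below 0.05, 5 were lower, where 1.42% of all genes tested were (3.23% in either direction), and again nothing is read from that. At an adjusted p 0% of all genes were called in edgeR, 476 genes having an unadjusted p below 0.05, whereas DESeq2 called 22.

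The libraries of Car8 and Itpr1 did not overlap between these groups, nor did 4.22% of all genes tested in that direction, with 3.51% in the other. Without replicate 2 of CVST+Ligation the values were −4.10 for Fat2, −1.05 for Car8, −0.91 for Pcp2, −0.62 for Itpr1 and −0.61 for Homer3, and those of Cbln1 (0.65) and Zic1 (1.30) turned positive. Zic1 was also at 0.06 under limma on log2(FPKM + 0.1).

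The comparison of 4-PBA with CVST does not contain the library for which the genes were chosen. Here 4 members were higher and 4 lower, with a median of 0.03 against −0.01 over all genes tested. Zic1 differed by 2.18 ± 0.95, Cbln1 by 1.88 ± 0.93, Homer3 by 0.32 ± 0.55, Fat2 by 0.14 ± 2.96, Calb1 by −0.08 ± 0.36, Pcp2 by −0.09 ± 1.10, Car8 by −0.91 ± 0.99 and Itpr1 by −1.34 ± 0.52 on the log2 scale. The spread within CVST+Ligation enters these standard errors, because the 3 groups share an estimate of the spread.

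In that comparison the libraries of Cbln1 and Zic1 were wholly higher in 4-PBA and those of Car8 wholly lower, where 12.3% and 11.5% of all genes tested did the same. An exact permutation test of 3 against 3 libraries cannot go below a p of 0.1. At an unadjusted p below 0.05 only Itpr1 was lower, where 7.33% of all genes tested were (15.4% in either direction and 0.122% at an adjusted p), and nothing is read from that count. The most restricted markers, Gabra6, Fat2, Cbln3 and Pcp2, stayed at 0 to 14 counts for the granule genes and 53 to 95 counts for Pcp2 in these 6 libraries.

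**Figure D3:**
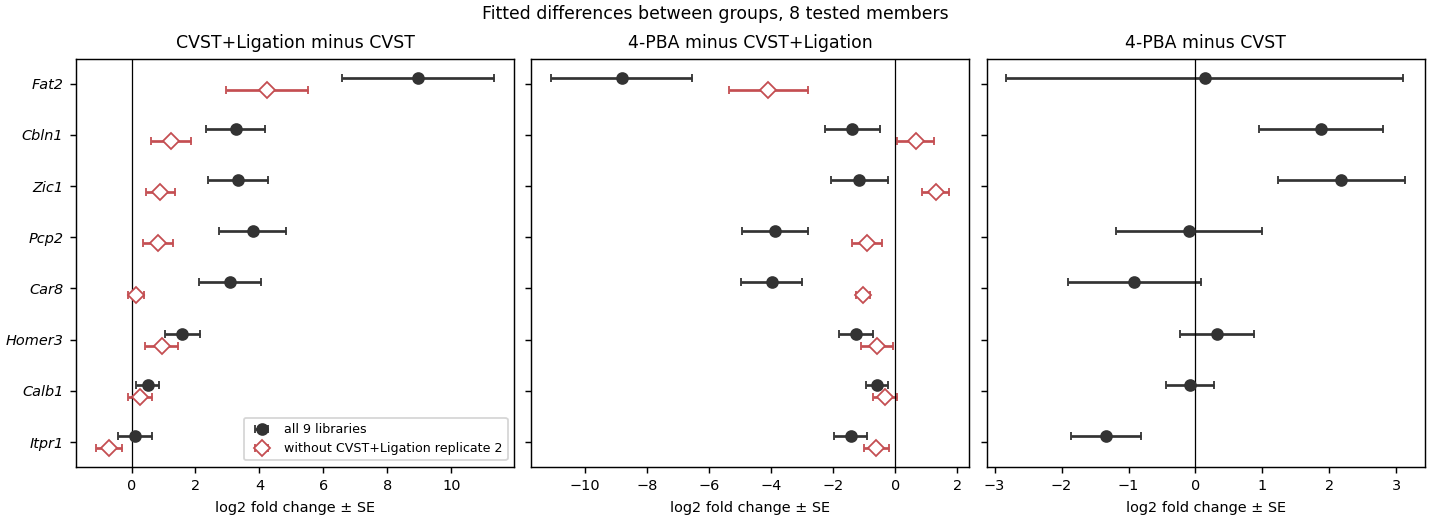
Fitted log2 fold change with its standard error for the 8 tested members in the 3 comparisons. Filled circles use all 9 libraries and open diamonds leave out replicate 2 of CVST+Ligation; in the left panel the diamonds lie closer to 0 for all members but Itpr1, which moves from 0.11 to −0.71, and in the middle panel those of Cbln1 and Zic1 lie right of 0.

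Beside the members, 16 other granule cell genes were followed, all of them tested. Against CVST, 10 were higher in CVST+Ligation at an unadjusted p below 0.05 and 0 were lower, where 5.47% and 4.18% of all genes tested were. Their median difference was 1.47 against 0.00 over all genes. None passed at an adjusted p below 0.05 in edgeR, whereas DESeq2 called 4, Neurod1, Mab21l1, Calb2 and Etv1. These lists were drawn up with earlier results of these data known, so their counts are a description.

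Of the granule list, 13 of 16 genes were highest in replicate 2 of CVST+Ligation. Mab21l1, a regulator of neuronal development, had 0.382, 0.576 and 1.57 CPM in CVST, 3.06, 51.5 and 5.45 in CVST+Ligation and 8.83, 5.43 and 5.94 in 4-PBA. En2, a homeobox gene of the midbrain and cerebellum, had 0.255 to 0.576 CPM in CVST, 0.868, 23.7 and 1.54 in CVST+Ligation and 0.673 to 2.29 in 4-PBA. Both were higher in every ligated library than in CVST, and both peaked in the library in which the members peaked.

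Cdh15, M-cadherin of granule cells, had 1.20 to 1.46 CPM in CVST, 2.19, 14.0 and 2.51 in CVST+Ligation and 1.60 to 3.25 in 4-PBA. Barhl1, a homeobox gene of granule cell precursors, had 0 counts in CVST, 6, 214 and 4 in CVST+Ligation and 9, 16 and 21 in 4-PBA. Both repeated the peak in replicate 2 with low values elsewhere.

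Neurod1, a transcription factor of granule cells that dentate and other neurons also make, had 4.04, 8.29 and 10.9 CPM in CVST, 21.2, 88.2 and 15 in CVST+Ligation and 6.23, 5.22 and 10.5 in 4-PBA. All ligated libraries without 4-PBA exceeded all others. Its difference was 2.42 ± 0.64 against CVST (adjusted p = 0.308, edgeR) and −2.50 ± 0.64 for 4-PBA against CVST+Ligation (adjusted p = 0.9998, edgeR).

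Calb2, calretinin, a calcium-binding protein of granule and unipolar brush cells and of many other neurons, had 7.61, 6.74 and 49.0 CPM in CVST, 101, 384 and 109 in CVST+Ligation and 121, 151 and 190 in 4-PBA. Etv1, a transcription factor of granule cells and of deep cortical layers, had 25.4 to 41.3 CPM in CVST, 55.5 to 70.3 in CVST+Ligation and 31.3 to 57.9 in 4-PBA. For Calb2 and Etv1 all 3 CVST+Ligation libraries lay above CVST, and for Etv1 replicate 2 was not the highest.

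For 4-PBA against CVST+Ligation, 2 of the 16 granule genes, Neurod1 and En2, were lower at an unadjusted p below 0.05 and 0 were higher, where 1.42% and 1.81% of all genes were. For 4-PBA against CVST, 4 were higher and 0 lower, where 8.07% and 7.33% were. In edgeR 0 of the list passed the adjusted threshold in either comparison, and DESeq2 called Neurod1 in the former and Calb2 in the latter. Without replicate 2 of CVST+Ligation, 6 were higher than CVST and 1, Gabrd, the delta subunit of the GABA-A receptor, was lower, the median being 0.55, where 4.65% and 3.42% of all genes were called. The direction of the list in 4-PBA against CVST+Ligation turned without that library. Its median went from −0.80 to 0.44, 11 of the 16 genes had positive differences, 2 were higher at an unadjusted p below 0.05, Pax6 and Zic2, and 1, Neurod1, was lower, where 5.37% and 4.64% of all genes tested were. En2 lost its call there, moving from −2.69 to 0.17 on the log2 scale, and Neurod1 moved from −2.50 to −1.29.

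Among 22 other Purkinje cell genes, 21 were tested, 9 were higher in CVST+Ligation than in CVST at an unadjusted p below 0.05 and 0 were lower, where 5.47% and 4.18% of all genes tested were. Their median difference was 0.94, and 17 of the 22 were highest in replicate 2. In edgeR 0 passed the adjusted threshold, and DESeq2 called 4, Lhx5, Ppp1r17, Slc1a6 and Ebf2.

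Ppp1r17, a phosphatase inhibitor of Purkinje cells, had 1, 0 and 13 counts in CVST, 11, 1252 and 77 in CVST+Ligation and 14, 51 and 44 in 4-PBA. Replicate 2 of CVST+Ligation was highest and replicate 3 next, an order that 5 of the 10 members shared. Gng13, a G-protein gamma subunit, had 4.97 to 12.2 CPM in CVST, 5.79, 24.2 and 9.45 in CVST+Ligation and 4.54 to 6.94 in 4-PBA, so its groups overlapped.

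The 3 genes of the Purkinje list with the smallest p were Lhx5, Lhx1 and Ebf2, developmental transcription factors that parts of the diencephalon, midbrain and hindbrain also make. Lhx5 had 0 counts in all CVST libraries, 53, 163 and 43 in CVST+Ligation and 41, 33 and 68 in 4-PBA. Lhx1 had 0, 0 and 5 counts in CVST, 35, 302 and 42 in CVST+Ligation and 55, 33 and 86 in 4-PBA. Ebf2 had 0 to 1 count in CVST, 12, 116 and 13 in CVST+Ligation and 11, 29 and 21 in 4-PBA. These 3 genes had 11 or more counts in all 6 ligated mice and at most 5 in the 3 others. The adjusted p for CVST+Ligation against CVST was 0.128 for Lhx5 and 0.273 for Lhx1 and Ebf2 in edgeR.

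For 4-PBA against CVST+Ligation, 3 of the 21 tested Purkinje genes, Ppp1r17 and Gng13 among them, were lower at an unadjusted p below 0.05 and 0 were higher, where 1.42% and 1.81% of all genes tested were. Against CVST, 3 were higher and 1 lower in 4-PBA, where 8.07% and 7.33% were. In edgeR 0 passed the adjusted threshold in these 2 comparisons, whereas DESeq2 called 0 against CVST+Ligation and 3 against CVST, Lhx5 and Ebf2 among them. Leaving out replicate 2 of CVST+Ligation, 7 Purkinje genes were higher than CVST, where 4.65% of all genes were, and the median was 0.36. The median of the Purkinje list in 4-PBA against CVST+Ligation then turned from −0.67 to 0.20, and 13 of the 21 genes had positive differences. At an unadjusted p below 0.05, 1 was higher and 3 were lower, where 5.37% and 4.64% of all genes tested were. Ppp1r17 and Gng13 both lost their calls, Ppp1r17 moving from −3.88 to −0.30 and Gng13 from −1.19 to −0.39 on the log2 scale.

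**Figure D4:**
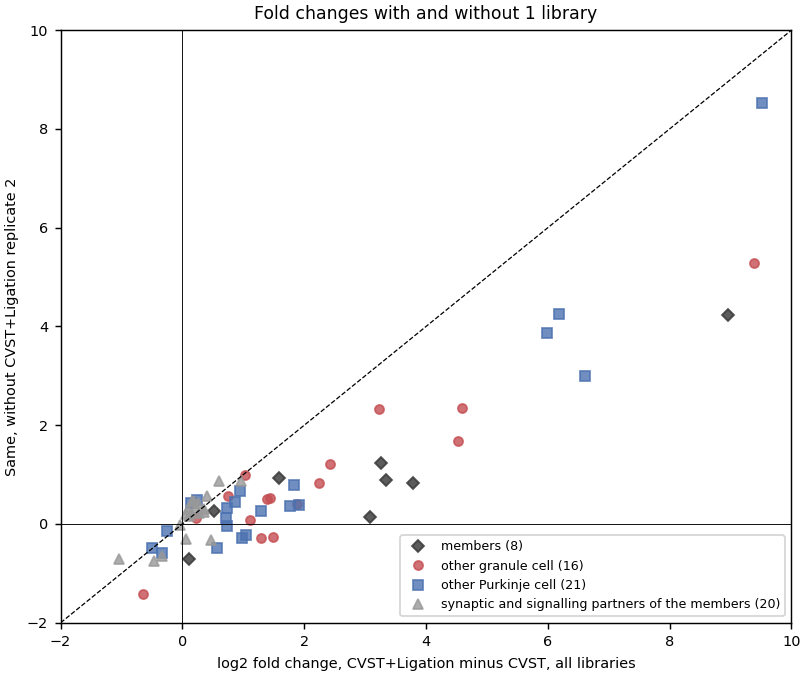
Fitted log2 fold change of CVST+Ligation over CVST with all libraries (horizontal) and without CVST+Ligation replicate 2 (vertical) for members, other granule and Purkinje cell genes and synaptic partners. The dashed line marks equal values; nearly all cerebellar genes with positive values lie below it, the members' median being 3.17 with all libraries and 0.86 without that library, and the uppermost square (Lhx5) and uppermost circle (Barhl1) have 0 counts in CVST, so that their fitted values are no measure of size.

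Partners of the members at synapses and in calcium signalling include neurexins, GABA-A receptor subunits and relatives of Homer3 and Itpr1. Of 20 such genes, all tested, 1 was higher and 1 lower in CVST+Ligation than in CVST at an unadjusted p below 0.05, with a median of 0.18, which is near the 5.47% and 4.18% of all genes tested. For 4-PBA 0 were called in either direction against CVST+Ligation, where 3.23% of all genes were, and 1 higher and 1 lower against CVST, where 8.07% and 7.33% were. Without replicate 2 of CVST+Ligation, 3 partners were higher and 1 lower in CVST+Ligation than in CVST, and 1 was higher and 2 were lower in 4-PBA than in CVST+Ligation, where 8.07% and 10% of all genes were called in either direction. In edgeR 0 passed the adjusted threshold in any comparison, and DESeq2 called only C1ql1, in 4-PBA against CVST. C1ql1, a complement-like ligand that climbing fibres release onto Purkinje cells, had 3.02 to 5.97 CPM in CVST, 6.53 to 8.97 in CVST+Ligation and 7.64 to 9.09 in 4-PBA.

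Homer1, a forebrain relative of Homer3, had 129 to 165 CPM in CVST, 82.0, 33.9 and 91.1 in CVST+Ligation and 51.4 to 85.0 in 4-PBA. It was lowest in the library in which Homer3 was highest. Itpr2, a related IP3 receptor, had 16.2 to 24.8 CPM in CVST, 22.7 to 27.1 in CVST+Ligation and 25.2 to 27.8 in 4-PBA, and Itpr3, the remaining relative, had 4.61 to 6.87, 4.70 to 15.7 and 6.90 to 34.6 CPM. The IP3 receptors thus peaked in different libraries, with Itpr3 highest in replicate 2 of 4-PBA. Shank1 and Shank2, postsynaptic scaffolds that bind Homer proteins, ranged from 165 to 331 and from 59.3 to 134 CPM over the 9 libraries, and both were highest in replicate 1 of CVST+Ligation.

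Markers of other cerebellar cells and of the hindbrain were also highest in the library in which the members peaked. For 7 genes of Bergmann glia, unipolar brush cells and inhibitory interneurons, the summed level was 3.48 to 7.05 CPM in CVST, 7.81, 87.0 and 8.31 CPM in replicates 1, 2 and 3 of CVST+Ligation, and 6.12 to 7.70 CPM in 4-PBA. Slc6a5, the glycine transporter of inhibitory neurons, reached 28.7 CPM in replicate 2 against at most 1.03 CPM elsewhere. Of the 4 tested genes of this list, 3 were higher in CVST+Ligation than in CVST at an unadjusted p below 0.05, where 5.47% of all genes tested were. Without replicate 2 the number was 1, where 4.65% were. In edgeR and in DESeq2 0 passed the adjusted threshold. The list was drawn up with earlier results known, so these counts are a description.

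For 16 hindbrain genes, mostly Hox genes that pattern the medulla and spinal cord, the summed level was 0.434 to 6.46 CPM in CVST, 4.92, 45.5 and 3.08 CPM in CVST+Ligation and 2.86 to 5.03 CPM in 4-PBA. In each CVST library and in replicates 1 and 3 of CVST+Ligation, 14 of the 16 had 0 counts, and the sums came from Glra1 and Phox2a alone. Phox2a had 0 counts in replicate 2 of CVST+Ligation and was highest in replicate 3, with 25 counts. Replicate 2 was highest for 13 of the 16. Hoxb5 had 114 counts there and Hoxc4 116, and both had 0 counts in all CVST libraries and in replicates 1 and 3 of CVST+Ligation. Replicate 3 of CVST+Ligation, which had Gabra6, Fat2 and Cbln3 counts, thus had no count of Hoxb5 or Hoxc4. A count of 0 allows up to 3 counts, and the excess of replicate 3 for Gabra6 was 2.48% of that of replicate 2. At such a share these zeros cannot set replicate 3 apart from replicate 2. The part of hindbrain tissue in the members' values was not tested.

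The summed level of cortical markers was lowest in the same library, where Slc17a7, a vesicular glutamate transporter, made up 419 of 702 CPM. The summed level of 10 markers of cortical excitatory neurons was 2326 to 2573 CPM in CVST, 1953, 702 and 1922 CPM in CVST+Ligation and 816 to 1103 CPM in 4-PBA. For 9 striatal markers it was 1073 to 1924 CPM in CVST, 229 to 536 in CVST+Ligation and 268 to 1353 in 4-PBA, and for 7 hippocampal markers 173 to 405, 154 to 450 and 220 to 408 CPM. In replicate 2 of CVST+Ligation 125 of the 154 CPM of the hippocampal list were from Wfs1, and the striatal sum lay between those of the other libraries of its group. The part of these regions in the members' values was not tested.

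Regional markers also differed between the groups as a whole. The sum of 12 midbrain markers was 18.8 to 20.0 CPM in CVST, 167 to 230 in CVST+Ligation and 223 to 225 in 4-PBA. All 12 were higher in CVST+Ligation than in CVST at an unadjusted p below 0.05, where 5.47% of all genes tested were. Nothing is read from that count, because this list too was drawn up with earlier results of these data known. Slc18a2, the vesicular monoamine transporter, rose by 5.63 ± 0.42 in CVST+Ligation (adjusted p = 0.00337, edgeR) and Ddc, which makes dopamine and serotonin, by 3.29 ± 0.34 (adjusted p = 0.0411). That comparison had 3 adjusted calls over all genes, a number that was 0 when CVST replicate 1 was left out or when a gene needed 10 counts in each library, and 1 with a replicate block, the compared groups alone or CVST+Ligation replicate 1 left out. In 4-PBA against CVST, Slc18a2, Ddc, Th and Slc6a3 of that list, Tcf7l2 of the thalamus and Pmch and Hcrt of the hypothalamus passed the adjusted threshold, with adjusted p from 0.00480 to 0.0381. They were among 18 adjusted calls over all genes in that comparison, a number that was 2 without CVST replicate 1 or 4-PBA replicate 1, 3 without CVST replicate 2, 5 without 4-PBA replicate 2 and 6 when a gene needed 10 counts in each library, but 162 without CVST replicate 3. The sum of 8 thalamic markers was 83.5 to 89.0, 172 to 343 and 348 to 666 CPM in CVST, CVST+Ligation and 4-PBA, and that of 7 hypothalamic markers was 2.25 to 3.47, 2.23 to 20.9 and 277 to 473 CPM.

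Cbln1 and Zic1, which were higher in 4-PBA than in CVST, are also made outside the cerebellum. Gabra6 had 0 counts in all 6 of those libraries, and the thalamic sums of the groups did not overlap. Zic1 is a gene of meningeal cells as well, and 8 meningeal fibroblast markers summed to 78.5 to 121 CPM in CVST, 103 to 242 in CVST+Ligation and 109 to 353 in 4-PBA. In replicates 1, 2 and 3 of 4-PBA, Zic1 had 25.7, 15 and 29.3 CPM and Cbln1 11, 18.2 and 21.5 CPM. The thalamic sums there were 564, 348 and 666 CPM, and the meningeal sums 162, 353 and 109 CPM. The part of thalamus or meninges in the 4-PBA values of Cbln1 and Zic1 was not tested.

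**Figure D5:**
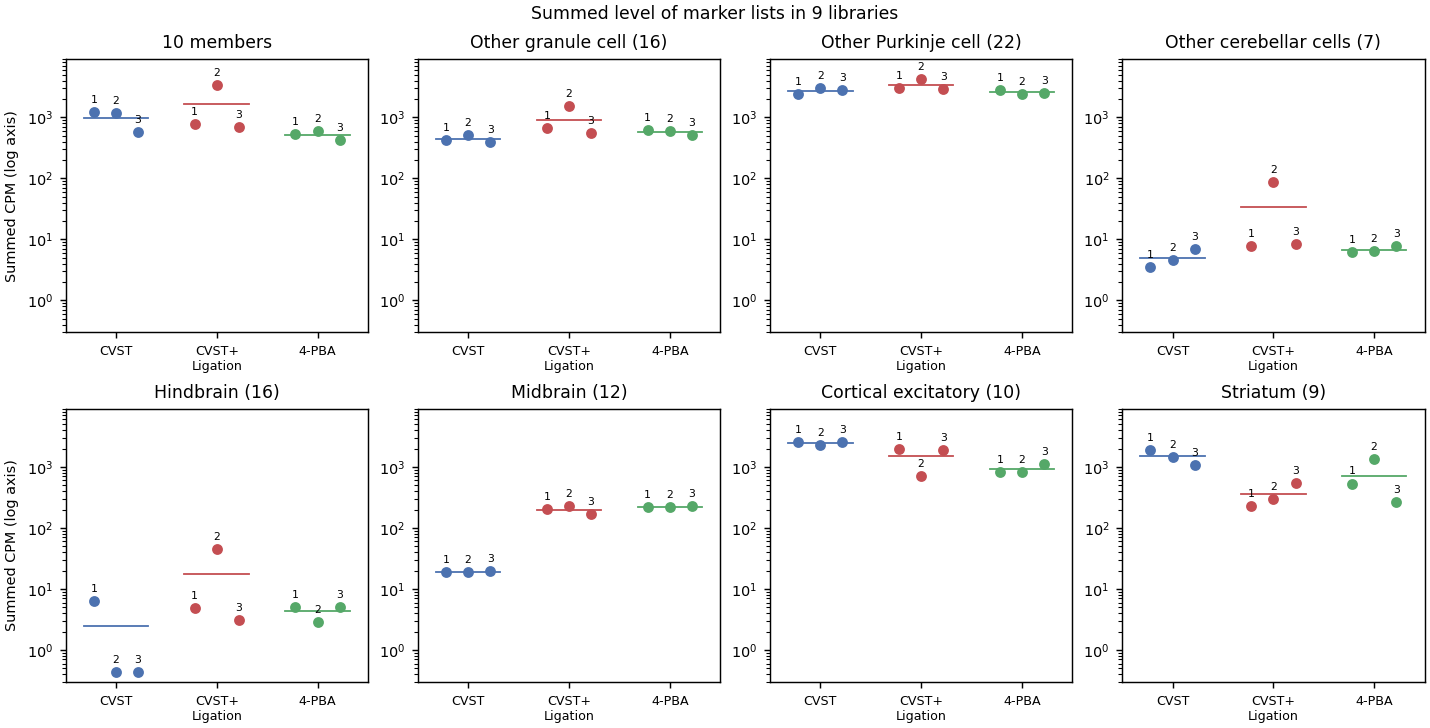
Summed CPM (log axis) of the 10 members and of 7 marker lists in each library, with the number of genes in parentheses. Points are libraries numbered by replicate and lines are group means; replicate 2 of CVST+Ligation is the highest point for the 4 cerebellar lists, the hindbrain list (45.5 CPM) and, by a small step, the midbrain list (230 CPM), and the lowest for cortical excitatory neurons (702 CPM).

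For markers of further cell types the summed levels in CVST, CVST+Ligation and 4-PBA were 2511 to 3303, 2557 to 5752 and 4443 to 7214 CPM for 6 oligodendrocyte markers, 1168 to 1987, 1272 to 1706 and 1077 to 2310 CPM for 6 astrocyte markers, and 258 to 295, 198 to 257 and 216 to 234 CPM for 5 microglial markers. Sums of 7 choroid plexus markers ranged from 788 to 980, from 17.2 to 859 and from 449 to 3133 CPM, with the lowest sum in replicate 2 of CVST+Ligation. For 5 olfactory bulb markers the sums were 6.88 to 9.93, 9.33 to 13.1 and 10.3 to 25.5 CPM, and for 5 red blood cell genes 154 to 186, 152 to 329 and 167 to 211 CPM.

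The 10 genes outside the members whose levels were most like the mean profile of the members over the 9 libraries were Cep76, Gdf10, Dao, Trmt9b, Arhgef33, Cdh15, Atp5b, Il20rb, Prag1 and Rgl3, with Pearson's r from 0.94 to 0.96. Dao, D-amino-acid oxidase, had 0.255 to 0.434 CPM in CVST, 1.20, 24.5 and 2.15 in CVST+Ligation and 0.191 to 0.813 in 4-PBA. It kept an r of 0.85 without replicate 2. Gdf10, a growth factor of Bergmann glia, had 2.59 to 5.80, 5.62 to 33.3 and 4.31 to 5.81 CPM, and its r was 0.58 when that library was left out.

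For the other 8 of these genes r without replicate 2 ranged from −0.12 for Rgl3 to 0.57 for Il20rb. Arhgef33 had 77.4 CPM in replicate 2 and 2.64 CPM in replicate 3 of CVST+Ligation, against at most 1.56 CPM elsewhere. Atp5b, a subunit of the mitochondrial ATP synthase that every cell uses, was among them with only 2735 CPM in replicate 2 against 2068 to 2284 CPM elsewhere. None of the 10 named genes was among the 10 most alike when that library was left out, and none when genes of low counts were let in.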

How the data were processed

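RNA-seq libraries of 9 mouse brains were grouped by the names in their labels. Per the submitters' processing notes, reads were handled with fastp, HISAT2, StringTie and RSEM on mm10 (GRCm38); the methods name an orientation mode for HISAT2 and RSEM for quantification, and the versions, the annotation, the program behind the count table and whether it used strand are not given in the sources used here. The authors deposited read counts per gene symbol, not normalized, and FPKM values; the methods call the latter TPM, but each deposited FPKM equals the count divided by the library total and a single length per gene. The deposited tables have 0 columns of unmapped samples.

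The count analysis used edgeR 4.0.16 (R 4.3.3), with filterByExpr by group, TMM scaling, and 1 quasi-likelihood fit of all 9 libraries, from which the 3 comparisons were taken. Adjusted p-values are Benjamini-Hochberg over 14746 genes; a gene counted as called at p below 0.05. CPM uses TMM-scaled library sizes. Standard errors were computed from the fit. Totals were 18100739 to 25091498 counts per library, and 3 counts were taken as the limit that a count of 0 allows. Intervals of count ratios are exact conditional binomial at 95%. Replicates are separate mice, so the p-values measure the spread between mice. No pair of libraries in a group agreed within sampling noise.

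Members and lists were chosen with earlier results of these data known. Beyond the members, the text names genes of a list with an adjusted p below 0.05, the 3 genes with the smallest p per comparison in the granule, Purkinje and partner lists, and the 10 genes most like the members by Pearson's r to their mean z-score of log2 CPM (prior count 2). Slc6a5, Hoxb5, Hoxc4, Glra1, Phox2a, Gabrd, Pax6, Zic2, Slc1a6, Slc17a7 and Wfs1 were named after their values were seen. A gene that this rule would name is not reported here. Alternatives were DESeq2 1.42.0, its size factors, total counts, no filter, at least 10 counts in every library, limma 3.58.1 on log2(FPKM + 1) and log2(FPKM + 0.1), a replicate block, the compared groups alone, and each library left out. Positions are from the GENCODE annotation of GRCm38, and upstream sequences from RefSeq on GRCm38.p6.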

Additional observations from a re-analysis of the deposited data

How the results depend on the processing

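Leaving out replicates 2 and 3 of CVST+Ligation together was chosen after seeing the data; all other alternatives were planned. For CVST+Ligation against CVST the median of the members (3.17) was 1.77 and 1.92 by limma on log2(FPKM + 1) and log2(FPKM + 0.1), 0.32 without replicates 2 and 3, and 0.86 to 3.68 with each library left out, the lowest without replicate 2. Of the 38 other granule and Purkinje genes, not all of them tested, 19 were called at an unadjusted p below 0.05, where 9.64% of all genes tested were. The number was 12 with at least 10 counts in every library, a filter that removes some of these genes. It was 14 to 25 with each library left out. Genes called at an adjusted p (3) were 264 by DESeq2, 0 with at least 10 counts, 13 by limma on log2(FPKM + 0.1), 1 with the compared groups alone, and 0 to 7 with each library left out, 7 without CVST+Ligation replicate 2.

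For 4-PBA against CVST+Ligation the median (−1.41) was −1.78 to −0.61 with each library left out, −0.61 without CVST+Ligation replicate 2, and −0.47 without replicates 2 and 3. Other cerebellar genes called at an unadjusted p below 0.05 were 5 in the main fit, where 3.23% of all genes tested were called. They were 3 by either limma setting and 2 to 10 with each library left out, the lowest without 4-PBA replicate 2. Calls at an unadjusted p (476) were 921 without replicates 2 and 3, and 256 to 1497 with each left out, 256 without 4-PBA replicate 2 and 1497 without CVST+Ligation replicate 2. At an adjusted p edgeR called 0, against 22 by DESeq2, 2 by limma on log2(FPKM + 1), 1 without replicates 2 and 3, and 0 to 2 with each left out. For 4-PBA against CVST, other cerebellar genes called at an unadjusted p below 0.05 were 8 in the main fit, where 15.4% of all genes tested were called. They were 3 with at least 10 counts in every library, a filter that removes some of them, and 16 with the compared groups alone. Calls at an adjusted p (18) were 855 by DESeq2, 112 with no filter, 6 with at least 10 counts, 87 and 134 by limma with pseudocounts of 1 and 0.1, 234 with the compared groups alone, and 2 to 162 with each library left out, 2 without CVST replicate 1 or 4-PBA replicate 1 and 162 without CVST replicate 3. Of the 10 genes most like the members, 0 were shared with no filter and 0 to 8 with each library left out. The cause of these shifts was not tested.

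Replicate numbers recur in all groups, and the 9 same-numbered pairs had correlations of −0.05 to 0.32, with 4 over 0.1. Pairs of different number had correlations of −0.36 to 0.13. The main fit did not use the numbers, and whether they mark a shared batch was not tested. With a replicate block, calls at an adjusted p were 1 for CVST+Ligation against CVST and 1 for 4-PBA against CVST+Ligation. Other cerebellar genes called at an unadjusted p below 0.05 in the latter were 3, against 5 in the main fit. Among the comparisons' medians and counts, 149 values under alternatives stayed within the spread or 1.5 times, and 51 did not. For single members 319 stayed within a standard error and 52 did not. Depth limits Gabra6, Cbln3 and Fat2, which had at most 14 counts in 7 libraries.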

Other observations

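Dopamine neuron genes of the midbrain list did not share 1 pattern in the library in which the cerebellar genes peaked. Slc6a3, the dopamine transporter, had 66.2, 5.62 and 44.7 CPM in replicates 1, 2 and 3 of CVST+Ligation and 54.4 to 69.5 CPM in 4-PBA. Th, the enzyme that makes L-DOPA, had 49.0, 20.6 and 46.0 CPM in CVST+Ligation and 49.7 to 59.4 CPM in 4-PBA. Ddc and Slc18a2, which serotonin neurons also use, were highest in replicate 2, with 127 and 31.6 CPM against 55 to 78.7 and 12.3 to 19.8 CPM in the other ligated libraries. Replicate 2 was thus lowest of the 6 ligated libraries for Slc6a3 and Th and highest for Ddc and Slc18a2.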
